A study of Mus musculus with 4 samples.

Results

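The 9 genes described here encode signals that draw myeloid cells into a tissue and keep macrophages alive, together with the receptors that read them. They were taken by symbol from the gene lists of the deposited matrices and all 9 were found, among 31053 listed genes. They are the chemokines Ccl2, Ccl7 and Ccl12 with their receptor Ccr2, the fractalkine gene Cx3cl1 with its receptor Cx3cr1, and the growth factors Csf1 and Il34 with their shared receptor Csf1r. RNA of single cells was sequenced with 10x Genomics chemistry in 4 libraries of the mouse submandibular gland, one of the large salivary glands, after beads had removed epithelial and red blood cells. In the 2 deligated libraries the ducts of female C57BL6/J mice, aged 14 weeks at harvest, had been closed by a metal clip for 14 days and reopened for 5 days. The 2 homeostatic libraries came from female C57BL6/J mice aged 12 weeks without surgery, so that surgery and age cannot be told apart. The tissue label names the submandibular gland alone, whereas the labels' protocols name the sublingual gland beside it, both for the clip and for the harvest, so that sublingual cells may be among those measured. The labels do not say how many animals gave each library, and p-values therefore measure only the spread between these libraries, which may be technical.

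CCR2 is the receptor that lets inflammatory monocytes leave the bone marrow and enter tissue along gradients of CCL2 and CCL7, and in the mouse also of CCL12. Fractalkine is made as a membrane-bound protein, can be shed by the proteases ADAM10 and ADAM17, and is read by CX3CR1 on resident macrophages, patrolling monocytes and some lymphocytes. Macrophages of most tissues need signals through CSF1R, and its ligands CSF1 and IL34 are supplied mainly by the connective tissue, vessel and epithelial cells around them.

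The 4 libraries held between 35662241 and 53898793 UMIs (unique molecular identifiers, counts of captured RNA molecules), and 33695 of 39558 barcodes were retained as cells. The median retained cell had 6027 and 5162 UMIs after deligation, against 2854 and 2696.5 in homeostasis. Cells were grouped into classes named for their resemblance to a cell type. Cells of different clusters made up most of the fibroblast-like, endothelial-like, NK/innate lymphoid-like and T cell-like classes in the 2 groups. Between 12 and 38 barcodes were shared by any 2 libraries, at most 0.409% of the smaller library. The deligated libraries were counted with Cell Ranger 6.0.1 and the homeostatic libraries with Cell Ranger 7.0.0, and genes with over 100 kb of intron took 7.01% to 7.75% of UMIs in deligated and 10.1% to 10.2% in homeostatic libraries. Within fibroblast-like cells they took 8.58% and 8.27% against 16.3% and 16.5%, and within macrophage-like cells 3.95% and 4.18% against 9.39% and 8.83%. Across genes, fold changes between the groups fell with intron length. Spearman correlations ran from -0.59 in T cell-like to -0.42 in mural-like and macrophage-like cells, and stood at -0.33 over all retained cells. Immediate early genes, which respond to tissue dissociation, summed to 4098 and 4841 CPM (UMIs per 1000000 UMIs of the cells summed) in deligated and 2037 and 1932 CPM in homeostatic libraries. Salivary secretory transcripts summed to 184 and 409 CPM against 17923 and 16689 CPM, where 32 and 56 against 1070 and 1131 retained cells were epithelial-like. Within fibroblast-like cells they summed to 67.1 and 68.2 CPM against 1607 and 782 CPM. The part of these differences in the results below was not tested, except where a value is given.

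Macrophages were rarer after deligation. The macrophage-like class, defined by complement C1q genes, Adgre1 and other lineage markers, held 57 and 114 cells in the deligated and 916 in each homeostatic library. These were 1.31% (95% exact Clopper-Pearson interval 0.992% to 1.69%) and 1.46% (1.20% to 1.75%) of retained cells against 8.63% (8.10% to 9.18%) and 8.4% (7.89% to 8.94%). The change was -2.62 ± 0.15 (SE) on the log2 scale (edgeR quasi-likelihood test on cell counts, adjusted p = 0.00126 over 12 classes). A further group of cells carried macrophage markers, with Csf1r in up to 97.4% of the cells of a cluster, but its leading genes were haemoglobin genes, so that it stayed unnamed. It held 5 and 29 cells in the deligated and 247 and 265 in the homeostatic libraries. The macrophage-like cells of the first deligated library also held 1324 UMIs of neutrophil markers, with at least 5 such UMIs in 5 of its 57 cells, whereas the other libraries held 3 to 229.

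**Figure D1:**
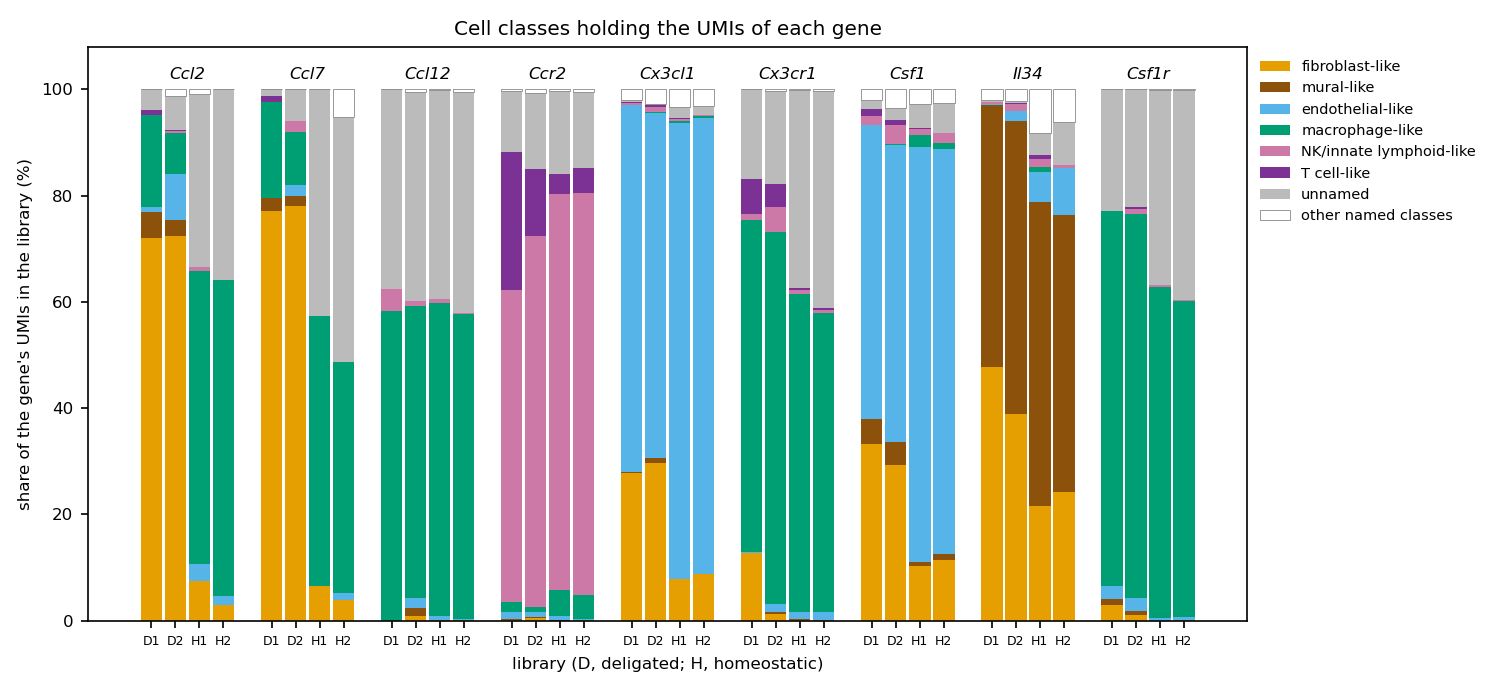
Share of each gene's UMIs (vertical axis, percent) by cell class in each of the 4 libraries (horizontal axis). Csf1, Il34 and Cx3cl1 came mostly from fibroblast-like, mural-like and endothelial-like cells in all 4 libraries, while Ccl2 and Ccl7 moved from macrophage-like and unnamed cells in homeostatic libraries to fibroblast-like cells in deligated libraries.

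The largest shift in source was that of the chemokines Ccl2 and Ccl7. Fibroblast-like cells held 72.1% and 72.4% of all Ccl2 UMIs in the deligated libraries and 7.48% and 2.95% in the homeostatic ones. For Ccl7 the shares were 77.1% and 78.0% against 6.56% and 3.95%. In the homeostatic libraries macrophage-like cells held 55.1% and 59.5% of Ccl2 UMIs and the unnamed cells a further 32.7% and 35.9%. The 2 groups did not overlap in any of these shares, which depend on how many cells of each class a library held.

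Ccl2 also rose within the fibroblast-like class, and Ccl7 stood higher there. Ccl2 stood at 15.8 and 43.3 CPM of the class in the deligated libraries, from 75 and 286 UMIs, and at 10.8 and 4.06 CPM in the homeostatic libraries, from 19 and 7 UMIs. Both deligated libraries lay above both homeostatic ones, by a factor that differed between the deligated libraries. The log2 fold change was 2.06 ± 0.54 (SE; edgeR, adjusted p = 0.0193). Ccl7 stood at 13.5 and 5.90 CPM against 2.26 and 1.74 CPM, with 4 and 3 UMIs in the homeostatic libraries. Its log2 fold change was 2.29 ± 0.62. It passed the low-count filter through the deligated libraries alone, so that the test could only find it higher, and its call is not used as a result. Of the 4 members that reached the filter minimum in both groups, Ccl2 and Il34 were called, both higher, where 26.1% of all 11411 tested genes were called, 8.46% higher and 17.6% lower.

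Few fibroblast-like cells carried these UMIs. Ccl2 was found in 12 of 357 and 22 of 757 fibroblast-like cells of the deligated libraries (3.36% and 2.91%) and in 5 of 261 and 4 of 259 of the homeostatic ones (1.92% and 1.54%). After thinning every cell to 1000 UMIs the shares were 0.840% and 1.36% against 1.17% and 0.391%, which overlap. In endothelial-like cells, the comparison for free RNA, the share was at most 0.196%, at median depths of 3599 to 5821 UMIs against 6622 to 13093 UMIs in fibroblast-like cells. A single cell of the second deligated library held 111 of its 286 Ccl2 UMIs, and the top 5 cells held 76.0% and 85.3% of the UMIs in the 2 deligated libraries. Of the cells with Ccl2, 6 of 12 and 4 of 22 also had a Ccl7 UMI, against 4 of 345 and 18 of 735 of the cells without Ccl2. On average a cell with Ccl2 held 6.25 and 13 UMIs of it after deligation and 3.8 and 1.75 in homeostasis. Markers of other cells were also read in this class: the macrophage list summed to 579 and 639 CPM against 640 and 674 CPM, and the monocyte list to 447 and 184 CPM against 149 CPM in both homeostatic libraries. Csf1r, which fibroblasts should lack, was found in 3 of the 12 Ccl2-positive cells of the first deligated library and in none of those of the other libraries. At least 3 UMIs of macrophage markers were found in 50% and 59.1% of the cells with Ccl2 of the deligated libraries, against 80.3% and 68.4% of those without it, and in 60% and 50% against 57% and 58% in the homeostatic libraries. The median doublet score, the share of simulated doublets among a cell's nearest neighbours, was 0.588 in the cells with Ccl2 and 0.363 in those without it in the first deligated library, and 0.286 and 0.297 in the second. In the homeostatic libraries it was 0.617 and 0.594 with Ccl2 and 0.580 and 0.521 without it. The part of the monocyte markers and of doublets left in the class in the levels of Ccl2 and Ccl7 was not tested.

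**Figure D2:**
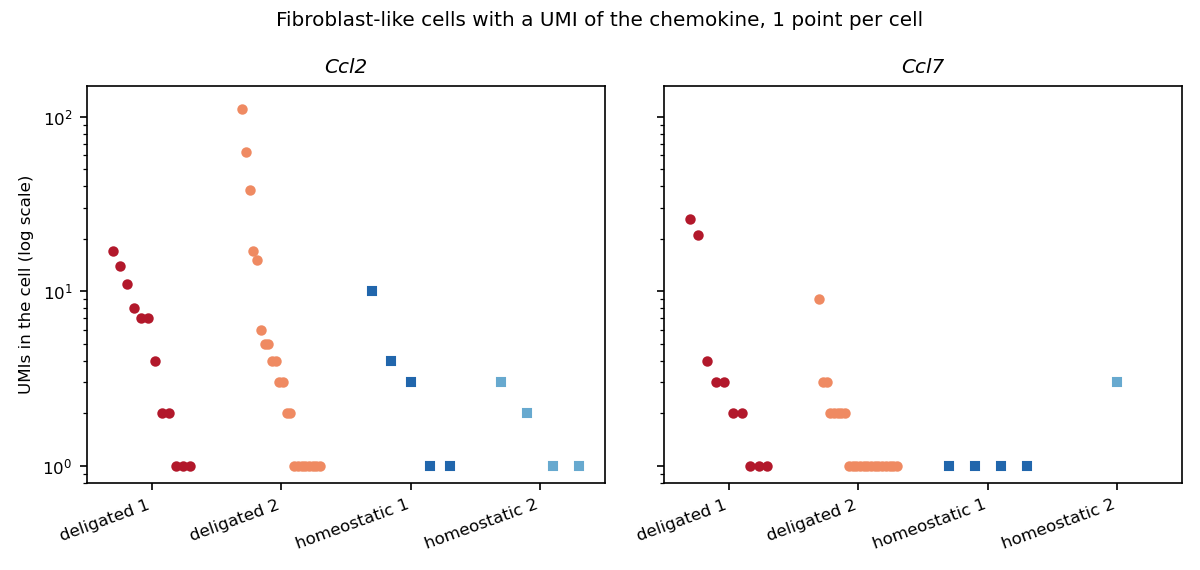
UMIs of Ccl2 (left) and Ccl7 (right) in each fibroblast-like cell with at least 1 UMI, on a log axis, by library. Both deligated libraries have a few cells with over 10 Ccl2 UMIs, up to 111, whereas homeostatic cells reach 10. For Ccl7 the highest cell has 26 UMIs in the first and 9 in the second deligated library, and 1 and 3 in the homeostatic libraries.

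The call of Ccl2 was lost once the dependence of fold changes on intron length was taken out (1.74, adjusted p = 0.0557) and without the second homeostatic library (1.53, adjusted p = 0.157). Where 1 of the 2 libraries of a group is left out, here and below, the other group alone gives the spread, and the lone library is assumed to vary like it. With doublets kept, the fold changes turned to -0.28 and -0.15, in a class where the first homeostatic library then held 217 Ccl2 UMIs together with 68 Csf1r UMIs.

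Within macrophage-like cells Ccl2 stood at 51.2 and 51.6 CPM in deligated and 43.5 and 48.6 CPM in homeostatic libraries, a log2 fold change of 0.15 ± 0.22 (edgeR, adjusted p = 0.688). Its direction turned with doublets kept (-0.20), at Leiden resolution 2.0 (-0.42) and after the intron-length correction (-0.11), and that of Ccl7 with doublets kept (-0.061), at resolution 2.0 (-0.38) and without the first deligated library (-0.36). The 18 UMIs of the first deligated library came from 1 cell. Ccl7 stood at 42.6 and 8.32 CPM against 9.63 and 11.4 CPM, and 14 of the 15 UMIs behind the first of these values came from 1 cell. Neither gene passed the test there, though Ccl7 was called higher without the second deligated library (2.03, adjusted p = 0.00428). Over all retained cells, where fewer cells of a type and less RNA per cell cannot be told apart, Ccl2 (-0.16 ± 0.43, adjusted p = 0.765) and Ccl7 (-0.06 ± 0.44, adjusted p = 0.919) were not called either.

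Ccl12 was read from macrophage-like and unnamed cells in both groups. It lies beside its relatives on chromosome 11 of GRCm38 (Ccl2 at 82035571 to 82037453, Ccl7 at 82045712 to 82047525, Ccl12 at 82101845 to 82103400, all on the plus strand), but its UMIs were in macrophage-like cells (54.9% to 59.0%) and unnamed cells (37.5% to 41.5%) in all 4 libraries. Fibroblast-like cells held 5 Ccl12 UMIs in all. The 250 bases upstream of its start (RefSeq, GRCm38.p6, chr11:82101595-82101844, plus strand) are shown because the UMIs of this chemokine were in macrophage-like cells in both groups. Capitals mark a TATAAA motif that begins at position -31 from the start.
Ccl12: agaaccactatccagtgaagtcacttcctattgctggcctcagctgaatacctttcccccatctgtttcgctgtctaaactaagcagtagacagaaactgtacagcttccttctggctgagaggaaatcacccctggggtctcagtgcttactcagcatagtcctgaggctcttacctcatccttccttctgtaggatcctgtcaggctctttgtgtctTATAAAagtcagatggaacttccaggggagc
Of 32851 upstream windows of 250 bases in the RefSeq table, 12.4% held TATAAA on either strand. The window was also searched on both strands for the AP-1 motif TGANTCA and the NF-kappaB motif, which these letters did not hold.

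In macrophage-like cells Ccl12 stood at 39.8 and 195 CPM in the deligated libraries, from 14 and 117 UMIs, and at 257 and 265 CPM in the homeostatic libraries. By cluster of the class the levels were 9.37 and 127 against 285 and 343 CPM in the first (cluster 5) and 86.7 and 226 against 246 and 233 CPM in the second (cluster 10). Both deligated values of the class were lower, but they lay further apart from each other than the second of them from the homeostatic ones. The log2 fold change was -1.06 ± 0.44 (edgeR, adjusted p = 0.146), so that a change in the share of the class's UMIs was not called. With the replicate number as a block it was -1.32 (adjusted p = 2.45e-05), and the replicate numbers were not found to pair the libraries. It was also called without the low-count filter (-1.15, adjusted p = 3.31e-06), and it was -0.46 without the first and -2.71 without the second deligated library (adjusted p = 0.0357 and 4.15e-07). Summed over all retained cells, Ccl12 stood at 0.738 and 4.62 CPM against 33.5 and 32.6 CPM and fell by 3.72 ± 0.61 on the log2 scale (edgeR, adjusted p = 0.0053). Of the 9 members, 5 were called over all retained cells, where 53.6% of 16715 tested genes were called, 23.7% higher and 29.9% lower.

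**Figure D3:**
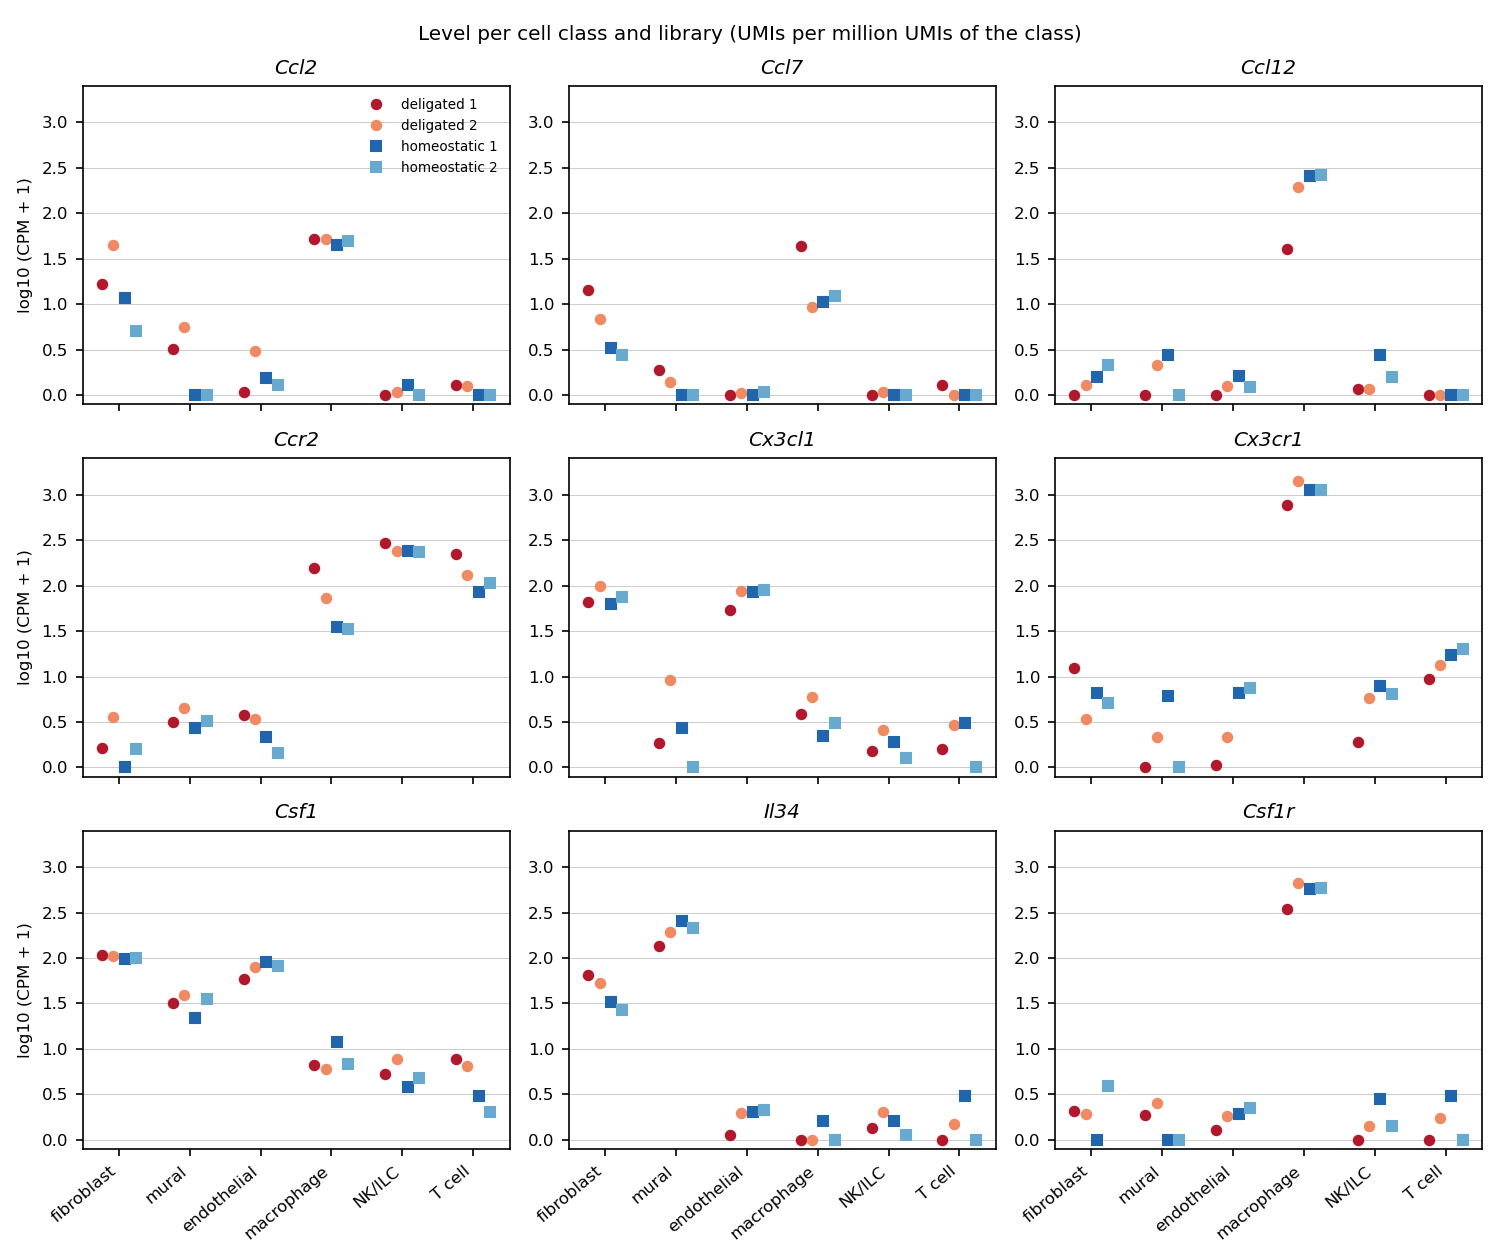
Level of each gene, log10 (CPM + 1) of UMIs summed per class, in 6 cell classes (horizontal axis) and 4 libraries (circles, deligated; squares, homeostatic). Csf1r, Cx3cr1 and Ccl12 are high in macrophage-like cells, Ccr2 in the lymphoid classes, and Il34 in mural-like and fibroblast-like cells.

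The receptor Ccr2 was read mainly from lymphoid cells in this tissue. NK/innate lymphoid-like cells held 58.7% and 69.8% of its UMIs in deligated and 74.6% and 75.7% in homeostatic libraries, and macrophage-like cells held 1.02% to 4.99%. A UMI of Ccr2 was found in 55.1%, 50.5%, 60% and 59% of NK/innate lymphoid-like cells, against 0.172% to 1.07% of endothelial-like cells, where it should be absent. Thinned to 1000 UMIs, the shares in NK/innate lymphoid-like cells were 20.1% to 22.3%. An unnamed pair of clusters, one deligated and one homeostatic, had the highest levels: 1016 and 737 CPM in 46 and 131 deligated cells and 457 and 423 CPM in 84 and 90 homeostatic cells, with 1 Csf1r UMI among them.

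Ccr2 stood at 296 and 237 CPM in the NK/innate lymphoid-like cells of deligated and at 242 and 232 CPM in those of homeostatic libraries. The groups overlapped, and the log2 fold change was 0.26 ± 0.13 (edgeR, adjusted p = 0.134). None of the 3 members tested in this class was called, of which Cx3cr1 had passed the low-count filter through the homeostatic libraries alone, where 43.5% of 11528 genes were called, 16.7% higher and 26.7% lower. Csf1 alone had an unadjusted p under 0.05 there with edgeR (adjusted p = 0.0618), and DESeq2 called 0 of the 3. The T cell-like class held 596 and 793 deligated cells, but 478 and 289 with doublets kept and 406 and 223 at Leiden resolution 2.0. Its homeostatic cells numbered 165 to 171 a library in all of these. In the main run T cell-like cells had 224 and 128 CPM of Ccr2 against 83.8 and 105 CPM. There Ccr2 rose by 1.04 ± 0.29 on the log2 scale (edgeR, adjusted p = 0.0453), and of the 2 members that reached the filter minimum in both groups, Ccr2 and Cx3cr1, it alone was called, where 18% of 9795 genes were called, 4.41% higher. That call was lost after the intron-length correction (0.76, adjusted p = 0.173), without the low-count filter (1.11, adjusted p = 0.0785), and without the first or the second homeostatic library (0.88 and 1.23, adjusted p = 0.176 and 0.0749).

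Macrophage-like cells had 153 and 71.6 CPM of Ccr2 in the deligated and 33.8 and 32.7 CPM in the homeostatic libraries, from 54, 43, 109 and 95 UMIs. The groups did not overlap, and the log2 fold change was 1.65 ± 0.32 (edgeR, adjusted p = 0.00946), the only one called of 7 members tested, of which Csf1 had passed the low-count filter through the homeostatic libraries alone, where 17.1% of 9455 genes were called, 6.56% higher. The UMIs came from few cells, however, and those cells were not all alike. At a finer clustering (Leiden resolution 2.0) 19, 15, 7 and 10 cells of the class formed a cluster with dendritic cell markers, and these cells held 46 of the 54 and 32 of the 43 Ccr2 UMIs of the deligated libraries, but 4 of 109 and 0 of 95 in the homeostatic libraries. The remaining macrophage-like cells had 42.5 and 22.2 CPM against 34.7 and 34.5 CPM, with a log2 fold change of -0.32 (adjusted p = 0.621). With doublets kept it was -0.73 (adjusted p = 0.241), and without the first or the second homeostatic library the call was lost at folds of 1.69 and 1.68 on the log2 scale (adjusted p = 0.144 and 0.138). In the class as a whole, dendritic markers summed to 335 and 208 CPM against 112 and 95.7 CPM.

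Endothelial-like cells had 2.76 and 2.42 against 1.18 and 0.432 CPM of Ccr2, from 40, 40, 17 and 6 UMIs. Of the 40 UMIs in the first deligated library 34 were in 5 cells. Ccr2 passed the low-count filter of this class through the deligated libraries alone, so that its call (log2 fold change 1.69 ± 0.45) is not used as a result. Over all retained cells Ccr2 stood at 87.6 and 91.5 CPM against 52.3 and 52.6 CPM and rose by 0.60 ± 0.07 (edgeR, adjusted p = 0.00202).

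Fractalkine, Cx3cl1, was made by endothelial-like and fibroblast-like cells. Endothelial-like cells held 69% and 65% of its UMIs in the deligated and 85.8% and 85.9% in the homeostatic libraries, and fibroblast-like cells held 27.8% and 29.7% against 7.79% and 8.80%. Within the endothelial-like class the level was 52.9 and 85.9 CPM against 84.1 and 89.3 CPM, a log2 fold change of -0.31 ± 0.19 (edgeR, adjusted p = 0.247). The first deligated library was the low one. Among vessel types, arterial endothelial-like cells had the most, 80.9 and 110 CPM against 125 and 131 CPM, above capillary endothelial-like cells with 49.2 and 84.1 against 79.2 and 85.1 CPM in each library. Venous endothelial-like cells had 46.6 and 71.8 against 44.4 and 41.1 CPM and lay below the capillary ones in every library.

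In fibroblast-like cells Cx3cl1 stood at 65.0 and 98.0 CPM in deligated and at 62.3 and 73.7 CPM in homeostatic libraries (log2 fold change 0.32 ± 0.20, edgeR adjusted p = 0.272), with overlapping groups. Mural-like cells, the pericytes and smooth muscle around vessels, had at most 8.12 CPM. Cx3cl1 summed over all retained cells stood at 34.1 and 47.4 against 33.8 and 35.1 CPM (log2 fold change 0.07 ± 0.16, adjusted p = 0.718).

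Its receptor Cx3cr1 was also read mainly from macrophage-like cells. Macrophage-like cells held 62.4% and 70% of the UMIs in deligated and 60% and 56.2% in homeostatic libraries, and unnamed cells held 16.9% and 17.6% against 37.4% and 40.9%. In the first deligated library fibroblast-like cells held a further 12.8%, where 52 of their 55 UMIs were in 5 cells. The level in macrophage-like cells was 765 and 1417 CPM against 1114 and 1122 CPM, so that the deligated libraries lay on both sides of the homeostatic ones (log2 fold change -0.04 ± 0.25, edgeR adjusted p = 0.943). The class pools 2 clusters that differ in Cx3cr1. In cluster 5, which held 41 of 57 and 63 of 114 cells in the deligated and 544 and 557 of 916 cells in the homeostatic libraries, the level was 127 and 201 against 159 and 211 CPM. In cluster 10 it was 1749 and 1976 against 1452 and 1492 CPM, with both deligated libraries above both homeostatic ones, and this difference was not tested (16 and 51 deligated cells). A UMI was found in 38.6% and 64.0% against 51.6% and 50.8% of cells, and in at most 2.35% of endothelial-like cells. With doublets kept and at Leiden resolution 2.0 the gene was called higher (0.59, adjusted p = 0.00551, and 0.42, adjusted p = 0.0319), and also after the intron-length correction (1.04, adjusted p = 0.037). Without the first deligated library it was 0.31 (adjusted p = 0.029), and without the second -0.54 (adjusted p = 0.00134). Cx3cr1 spans 163.8 kb of intron in GENCODE M21 and overlaps Csrnp1, Gorasp1 and Xirp1 on its own strand, so that its count is uncertain where reads in introns were counted.

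Over all retained cells Cx3cr1 stood at 13.3 and 26.4 CPM against 143 and 141 CPM and fell by 3.0 ± 0.31 on the log2 scale (edgeR, adjusted p = 0.00114). Endothelial-like cells had 0.0690 and 1.15 CPM in deligated and 5.62 and 6.49 CPM in homeostatic libraries, from 1, 19, 81 and 90 UMIs. It passed the filter there through the homeostatic libraries alone, so that its call (log2 fold change -3.22 ± 0.63) is not used as a result. Of the members tested in that class, 2 reached the filter minimum in both groups, Cx3cl1 and Csf1, and neither was called by edgeR or DESeq2, where 35.1% of 13141 genes were called, 12.9% higher and 22.2% lower. T cell-like cells had 8.49 and 12.3 against 16.4 and 19.3 CPM, which was not called (log2 fold change -0.63 ± 0.33, edgeR adjusted p = 0.233). The direction turned after the intron-length correction (0.54, adjusted p = 0.378), and the gene was called lower with doublets kept (-2.19, adjusted p = 0.00677) and at Leiden resolution 2.0 (-1.97, adjusted p = 0.0109).

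Few macrophage-like cells had a Ccr2 UMI, 10 and 13 in the deligated and 45 and 38 in the homeostatic libraries. In the homeostatic libraries most of these cells also had a Cx3cr1 UMI. Among macrophage-like cells 4 and 8 in the deligated and 34 and 36 in the homeostatic libraries had UMIs of both Ccr2 and Cx3cr1, 6, 5, 11 and 2 had Ccr2 alone, and 18, 65, 439 and 429 had Cx3cr1 alone. Neither receptor was found in 29, 36, 432 and 449 cells, and a cell without a UMI may still express the gene.

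Csf1, a survival and growth factor of macrophages, was read from all 3 stromal classes. It is encoded on the minus strand of chromosome 3 (GRCm38, 107741048 to 107760469). The 250 bases upstream of its start (RefSeq, GRCm38.p6, chr3:107760470-107760719, minus strand) are shown because of this broad source. Capitals mark an NF-kappaB motif, read on the other strand, that begins at position -154.
Csf1: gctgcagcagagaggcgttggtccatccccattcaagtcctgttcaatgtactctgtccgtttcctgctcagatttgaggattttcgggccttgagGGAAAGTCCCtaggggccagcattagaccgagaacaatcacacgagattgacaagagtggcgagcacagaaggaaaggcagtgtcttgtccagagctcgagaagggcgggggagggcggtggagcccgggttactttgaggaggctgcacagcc
This motif was present on either strand in 1.41% of the 32851 windows. TATAAA and TGANTCA were not found in these letters. The table also had windows for Ccr2, Cx3cl1 and Cx3cr1.

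Endothelial-like cells held 55.3% and 55.9% of Csf1 UMIs in deligated and 78.2% and 76.3% in homeostatic libraries. The share of fibroblast-like cells was 33.3% and 29.4% against 10.3% and 11.5%. As a level within the class, however, fibroblast-like cells had 107 and 104 against 96.3 and 98.7 CPM, and endothelial-like cells 58.3 and 79.1 against 89.5 and 81.3 CPM. Mural-like cells had 31.0 and 38.3 against 20.7 and 34.0 CPM, the lowest of the 3 stromal classes in every library. Macrophage-like cells had 4.99 to 10.9 CPM.

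No stromal change of Csf1 was called. Its log2 fold change was 0.17 ± 0.14 in the fibroblast-like class (edgeR, adjusted p = 0.401) and -0.30 ± 0.13 in the endothelial-like class (0.117). For the mural-like class it was 0.35 ± 0.33 (0.655). A UMI of Csf1 was found in 64.7% and 51.9% against 42.9% and 45.2% of fibroblast-like cells, but the shares were 10.9% and 10.4% against 7.81% and 7.42% once cells were thinned to 1000 UMIs. In NK/innate lymphoid-like cells, with medians of 5492 to 6229 UMIs, 1.69% to 3.62% of cells had a Csf1 UMI. In T cell-like cells the level was 6.67 and 5.55 CPM against 2.04 and 1.02 CPM, from 22, 23, 2 and 1 UMIs. It passed the low-count filter through the deligated libraries alone and was not called. For Csf1 the sum of all retained cells stood at 46.9 and 50.7 against 39.4 and 36.0 CPM (0.20 ± 0.08, adjusted p = 0.0939). It was called there with doublets kept (adjusted p = 0.0467), over all deposited barcodes (0.0392) and without the first or second deligated library (0.00292 and 0.0435).

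Il34, the other ligand of CSF1R, came from the cells around vessels and from fibroblasts, with few UMIs from the endothelium. Mural-like cells held 49.3% and 55.2% of its UMIs in deligated and 57.1% and 52.2% in homeostatic libraries, and fibroblast-like cells 47.7% and 38.8% against 21.6% and 24.2%. Endothelial-like cells had at most 1.15 CPM. Schwann-like cells, of which there were 15 to 63 a library, had 78.5 and 50.0 against 82.4 and 78.6 CPM from 4 to 15 UMIs.

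Il34 rose in fibroblast-like cells. The level was 63.3 and 52.6 CPM in the deligated and 31.7 and 25.5 CPM in the homeostatic libraries, from 301, 348, 56 and 44 UMIs, and the groups did not overlap. The log2 fold change was 1.07 ± 0.19 (edgeR, adjusted p = 0.00262), and 1.41 (adjusted p = 0.00104) after the intron-length correction. Without the second homeostatic library it was 0.94 (adjusted p = 0.0602). Il34 was found in 31.9% and 24.3% against 11.5% and 9.27% of fibroblast-like cells, or 5.88% and 3.54% against 2.73% and 3.52% at 1000 UMIs a cell. The thinned shares of the second library of each group differed by less than their counting error. In endothelial-like cells 0.106% to 0.519% of cells had an Il34 UMI.

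In mural-like cells, by contrast, Il34 stood at 136 and 191 CPM in deligated and at 255 and 215 CPM in homeostatic libraries. Both deligated values were lower, but the log2 fold change of -0.56 ± 0.20 did not pass the test (edgeR, adjusted p = 0.174), and neither tested member was called in this class by edgeR or DESeq2 (1 of 2 at an unadjusted p under 0.05, Il34 at 0.0197), where 5.49% of 9633 genes were called, 0.602% higher and 4.89% lower. The pericyte-like cells had more Il34 than the other mural-like cells in each library, 213 and 287 against 476 and 500 CPM beside 89.5 and 137 against 126 and 187 CPM. The groups did not overlap in the pericyte-like cells and overlapped in the others, and the second homeostatic library had only 11 pericyte-like cells with 20 UMIs.

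The change of Il34 differed between these classes. In a joint fit of the 3 stromal classes the log2 fold change in mural-like cells minus that in fibroblast-like cells was -1.67 ± 0.31 (edgeR, adjusted p = 0.0374), where 0.319% of 13146 genes were called. Without either homeostatic library the difference was -1.79 and -1.62, and the call was lost (adjusted p = 0.353 and 0.603). No other difference of a member passed among the 3 pairs of classes. For endothelial-like minus fibroblast-like cells, where 3.1% of genes were called, the nearest was Cx3cl1, at -0.76 ± 0.20 (adjusted p = 0.0516), followed by Csf1 at -0.61 ± 0.17 (0.0726). For mural-like minus endothelial-like cells, where 0.479% of genes were called, the lowest adjusted p of a member was 0.511, for Csf1.

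**Figure D4:**
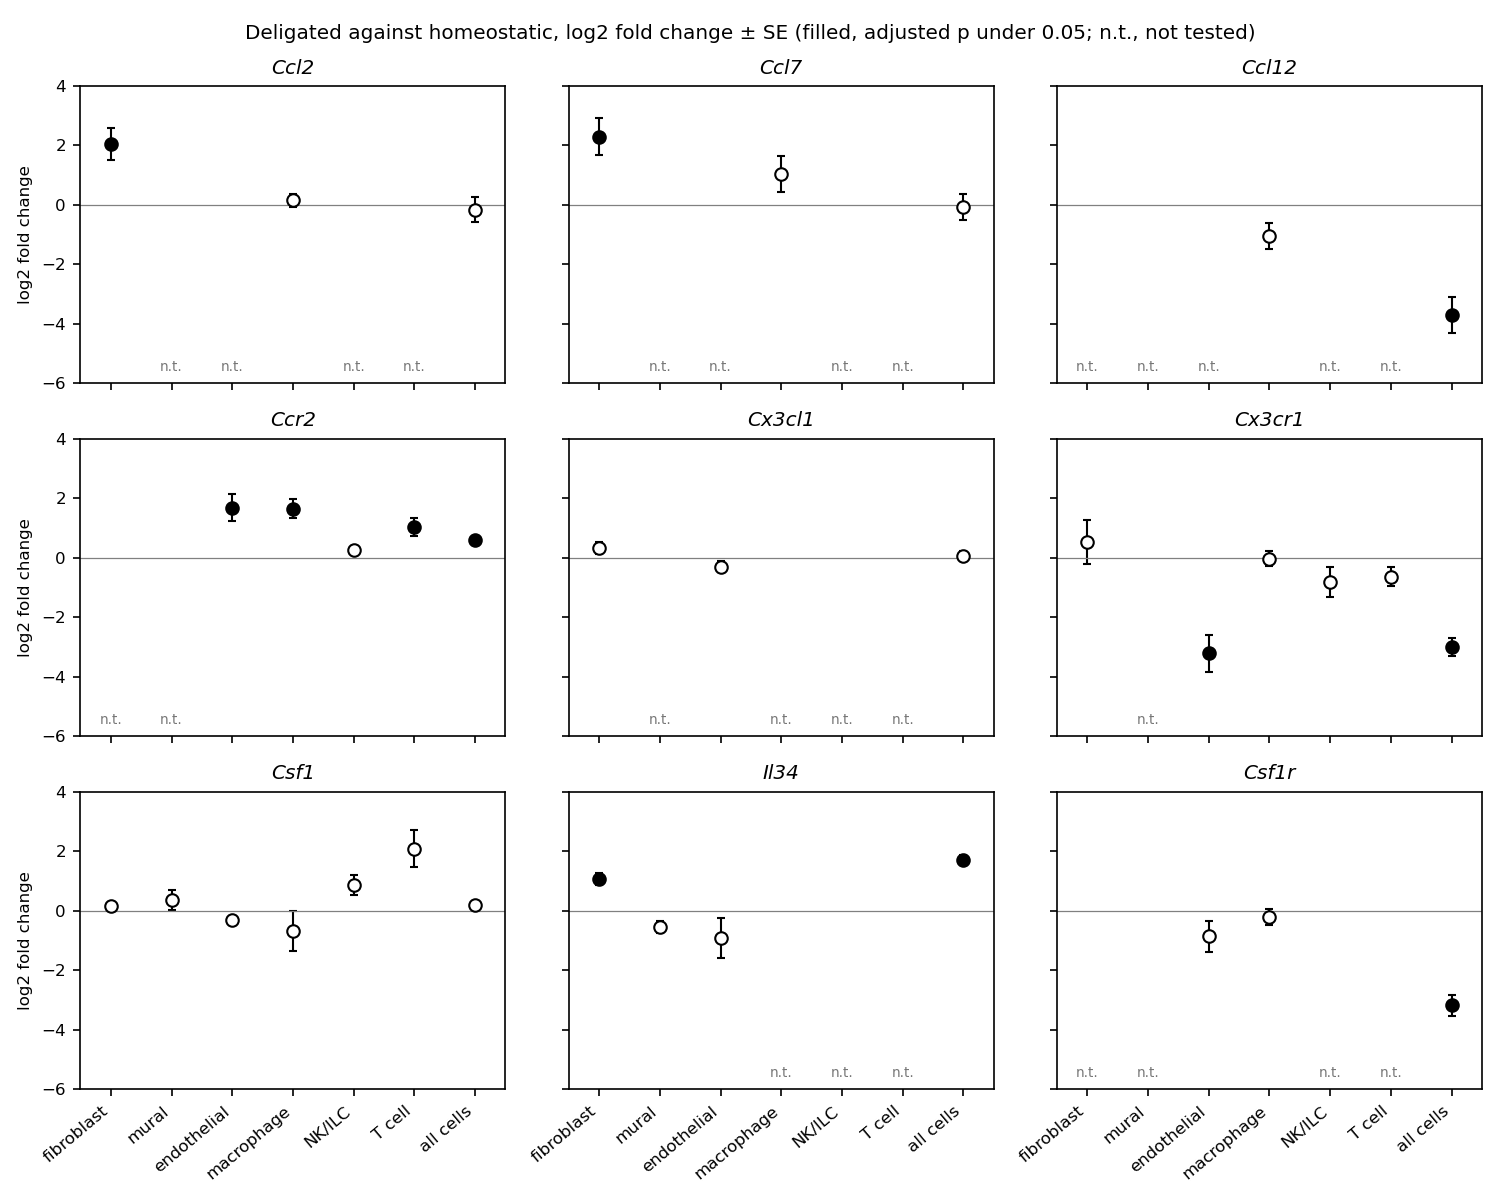
Log2 fold change of each gene, deligated against homeostatic, with its standard error, in 6 cell classes and in all retained cells (horizontal axis). Filled points passed an adjusted p of 0.05, though Ccl7 in fibroblast-like and Ccr2 and Cx3cr1 in endothelial-like cells passed the low-count filter through 1 group alone, and classes marked n.t. had too few UMIs to test. Il34 was higher in fibroblast-like cells at 1.07 and not in mural-like cells at -0.56, while the receptors Cx3cr1 and Csf1r were lower over all cells at -3.0 and -3.18 and stood at -0.04 and -0.20 in macrophage-like cells.

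Summed over all retained cells, Il34 stood at 19.4 CPM in both deligated libraries against 6.20 and 4.42 CPM and rose by 1.70 ± 0.16 (edgeR, adjusted p = 0.000931). Beside this, fibroblast-like cells made up 357 and 757 cells in the deligated and 261 and 259 in the homeostatic libraries, and mural-like cells 320 and 451 against 117 and 66.

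The receptor Csf1r was read mainly from macrophage-like cells. Macrophage-like cells held 70.8% and 72.2% of its UMIs in deligated and 62.4% and 59.4% in homeostatic libraries, and unnamed cells 22.8% and 22.0% against 36.6% and 39.6%. A UMI was found in 45.6% and 67.5% against 53.9% and 54.0% of macrophage-like cells, at median depths of 5652 and 3758 against 2010 and 1960.5 UMIs, and in 0.212% to 0.455% of endothelial-like cells. The level in macrophage-like cells was 344 and 671 CPM against 575 and 594 CPM (log2 fold change -0.20 ± 0.27, edgeR adjusted p = 0.664). In the pooled class the deligated libraries again lay on both sides of the homeostatic ones, and the first deligated library, whose cells held the neutrophil markers, was the low one. By cluster the level was 103 and 233 against 249 and 282 CPM in cluster 5, with both deligated libraries lower, and 715 and 872 against 691 and 721 CPM in cluster 10, where the groups overlapped. The direction of the class turned with doublets kept (0.46, adjusted p = 0.0372) and at Leiden resolution 2.0 (0.26, adjusted p = 0.244). Without the first deligated library the change was 0.16 (adjusted p = 0.338), and without the second deligated library it was -0.76 (adjusted p = 0.000475). With the haemoglobin-led cells added it was -0.16 (adjusted p = 0.678). In the sum of all retained cells Csf1r stood at 5.26 and 12.1 against 71.1 and 70.6 CPM and fell by 3.18 ± 0.36 (edgeR, adjusted p = 0.00148).

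The number of ligand UMIs per receptor UMI differed between the groups, beside the fall in macrophage-like cells. The libraries had 12.6 and 5.80 UMIs of Csf1 and Il34 together for each Csf1r UMI after deligation, against 0.642 and 0.572 in homeostasis. For Cx3cl1 over Cx3cr1 the ratios were 2.58 and 1.80 against 0.236 and 0.249. For the 3 chemokines over Ccr2 the order was the other way round, at 0.0741 and 0.156 against 0.785 and 0.765. Ccl12 made up 1400 of 1715 and 1343 of 1656 of these chemokine UMIs in homeostatic libraries, and 24 of 211 and 213 of 658 in deligated ones. Macrophage-like cells held only 1.02% to 4.99% of the Ccr2 UMIs. This ratio therefore depends on how many macrophage-like and lymphoid cells a library held. UMI numbers of different genes are not on 1 scale, so that only the differences between libraries carry meaning, and they were not tested. Stromal cells (fibroblast-like, mural-like and endothelial-like) held 25.0 and 18.4 Csf1 UMIs per macrophage-like cell in the deligated and 1.61 and 1.43 in the homeostatic libraries, and 10.8 and 7.54 against 0.239 and 0.169 Il34 UMIs. The cells in a suspension depleted with beads need not stand in the ratio of the gland.

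**Figure D5:**
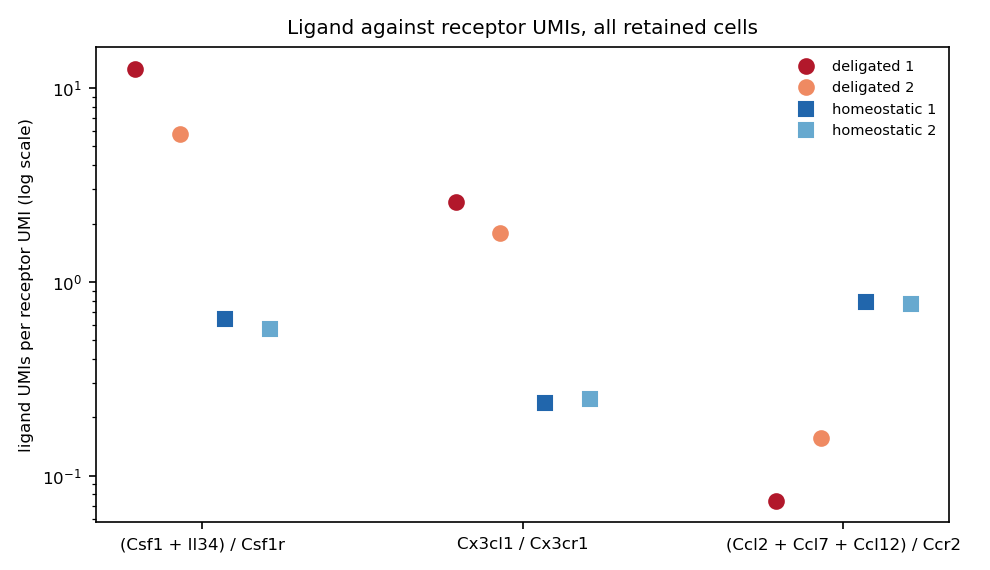
UMIs of ligand per UMI of receptor over all retained cells (vertical axis, log scale) for 3 ligand and receptor pairs, with 1 point for each library. Deligated libraries lie above homeostatic ones for (Csf1 + Il34) / Csf1r and Cx3cl1 / Cx3cr1, and below them for the chemokines over Ccr2.

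Other genes of these pathways were taken from fixed lists. Of 16 further chemokines and receptors of myeloid recruitment, 5 were tested in fibroblast-like cells and none was called by edgeR, with Cxcl1 and Ccl8 at an unadjusted p under 0.05. Over the 3 that reached the filter minimum in both groups, Ccl8 among them, the median log2 fold change was 0.63, beside 0.00 over all genes tested in the class. In macrophage-like cells, where 6.56% of all genes were called higher and 10.5% lower, 9 of the list reached the filter minimum in both groups, of which 2 rose and none fell (median 0.34, beside 0.00). These were Ccl5, a T and NK cell chemokine, at 1893 and 1259 against 67.4 and 223 CPM, and Cxcl2, a chemokine that draws neutrophils (log2 fold change 1.38 ± 0.19). Cxcl1, which also draws neutrophils, at 68.2 and 20.0 against 3.73 and 3.44 CPM, and the receptor Ccr3, at 28.4 and 8.32 CPM in deligated and at 0 in both homeostatic libraries, passed the low-count filter through the deligated libraries alone, so that their tests are no result. In endothelial-like cells, where 12.9% of genes were called higher and 22.2% lower, 7 were tested and 2 rose, Cxcl1 (1.34 ± 0.28, adjusted p = 0.0133) and the scavenging receptor Ackr1 (0.69 ± 0.20, adjusted p = 0.0401). These genes, and those named singly below, were chosen after their values were seen, because few of each list were called.

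Beside these genes and those named next, the macrophage-like class of the deligated libraries held 19 of 57 and 15 of 114 cells of the dendritic-like cluster found at resolution 2.0, against 7 and 10 of 916, and that of the first deligated library the 1324 neutrophil marker UMIs. At that resolution, without those cells, in edgeR Ccl5 (3.11), Cxcl2 (1.59), Csf2rb (1.32), Il1b (1.85) and Irf8 (0.68) were again called higher, with adjusted p-values from 3.3e-07 to 0.00414, and Csf2rb2 was not (1.32, adjusted p = 0.129). Newly called higher among the list genes were Ccl3 (1.03, adjusted p = 0.0021), Cebpa (0.73, adjusted p = 0.0397) and the immediate early genes Egr1 and Hspa1b. Nfkb1 was newly called lower (-0.77, adjusted p = 0.0353). Ccl5 was also called higher by edgeR in NK/innate lymphoid-like and T cell-like cells. The first of these classes made up 20.3% and 26.5% of retained cells in deligated and 9.49% and 9.69% in homeostatic libraries. T cell-like cells made up 13.7% and 10.1% against 1.57% and 1.51%. The part of the neutrophil markers, and that of free RNA or doublets of lymphoid cells in the Ccl5 level, was not tested. For the counts that follow, 8.46% of all genes tested in fibroblast-like cells were called higher and 17.6% lower, and in mural-like cells 0.602% were called higher.

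Of 7 further genes of the CSF family, 3 were tested in macrophage-like cells and 2 rose, the shared receptor chain Csf2rb (1.64 ± 0.20, adjusted p = 0.00116) and its mouse copy Csf2rb2, whose reads cannot always be told apart. Sdc1, a syndecan that can bind IL34, rose in fibroblast-like cells (0.83 ± 0.17, adjusted p = 0.00559) and in mural-like cells (0.90 ± 0.21, adjusted p = 0.0286). Of 4 genes for shedding and integrin partners of fractalkine, the protease gene Adam17 rose in fibroblast-like cells (0.50 ± 0.16, adjusted p = 0.0451), and Itgav fell in endothelial-like cells. In macrophage-like cells Adam10 (-1.15 ± 0.18, adjusted p = 0.00403) and Itgav fell. Values after the intron-length correction are given for members alone. The part of intron length in the changes of list genes, here and below, was not tested.

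Upstream of chemokine genes, 5 of 8 inflammatory signal genes were tested in fibroblast-like cells, and 2, Il1r1 and Nfkb1, fell. Of 6 NF-kappaB target genes of stroma, all tested there, Icam1 and Socs3 rose and none fell. In endothelial-like cells, where all 6 were also tested, Socs3 rose and Birc3, Nfkbiz and Vcam1 fell. Of all genes tested in that class 12.9% were called higher and 22.2% lower. In macrophage-like cells Il1b (2.17 ± 0.47, adjusted p = 0.0162), Nfkbia and Tnfrsf1a rose and Tnf fell (-1.33 ± 0.25, adjusted p = 0.00892), of 6 tested. Of 7 macrophage lineage and CSF1R signalling genes, all tested in macrophage-like cells, Irf8 rose (1.09 ± 0.21, adjusted p = 0.00884) and Inpp5d fell. The immediate early list moved with these groups: 9 of 12 rose in fibroblast-like and 8 of 12 in macrophage-like cells, with none lower, among them Dusp1 (1.80 ± 0.17 and 2.66 ± 0.26) and Fos (1.30 ± 0.15 and 1.58 ± 0.16). Among secretory transcripts Klk1 fell in fibroblast-like cells by 4.10 ± 0.37.

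For each member the genes with the most similar level over 24 sums, 6 classes in 4 libraries, were named by Pearson correlation of log2 (CPM + 1), as a description of sums that share libraries and depth. For Csf1r these were Cd33 (r = 0.993), C3ar1 (0.989) and Clec5a (0.987). For Il34 they included Tead3 (0.989) and Foxs1 (0.978). For Cx3cl1 they were Cd34 (0.974), Fam198b (0.972) and S100a16 (0.971), and for Csf1 Pttg1ip (0.964), Cdkn1c (0.959) and Tcaf2 (0.956). For Ccr2 they were Sash3 (0.979), Slc38a1 (0.978) and Spn (0.978), and for Cx3cr1 Cybb (0.954), Cd86 (0.953) and Ms4a7 (0.953). For Ccl12 they were Fgd2 (0.988), C5ar1 (0.987) and Fcgr1 (0.985), for Ccl2 Tmem119 (0.950), D5Ertd605e (0.946) and Lacc1 (0.945), and for Ccl7 Pilrb2 (0.962), Ccl2 and Tubb2b (both 0.934).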

How the data were processed

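The deposited matrices hold raw UMI counts per gene and barcode, made with Cell Ranger 6.0.1 (deligated) and 7.0.0 (homeostatic) per the file headers, whereas the submitters' processing notes list Cell Ranger 6.0.1, Seurat and mm10. Every deposited barcode held at least 500 UMIs. Whether intronic reads or strand were counted is not given in the sources used here. Of the listed gene identifiers 31011 (99.86%) matched GENCODE M21.

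Cells with at least 300 genes and at most 10% mitochondrial UMIs were kept, and doublets were removed per library at 0.8% per 1000 cells after comparison with simulated doublets. Counts scaled to 10000 a cell were clustered with scanpy 1.11.5 (3000 variable genes without the members and lists, 30 components, 20 neighbours, Leiden resolution 1.0). Clusters were named from a fixed marker list with at least 3 markers, by scoring details set with the clusters in view, and clusters led by cell cycle genes, with low UMIs or with leading genes of another class stayed unnamed (106, 291, 3357 and 3696 cells in deligated 1 and 2 and homeostatic 1 and 2). Classes with at least 40 cells in every library were summed and tested with edgeR 4.0.16 (quasi-likelihood, TMM, filterByExpr, Benjamini-Hochberg over all tested genes, threshold 0.05). The fits were tested on simulated data. CPM are UMIs per 1000000 UMIs of the class. Intervals are exact Clopper-Pearson at 95% and cover counting error only.

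The members and lists were chosen with earlier results of these data known. Named genes are all members in every class, up to 6 genes of lowest adjusted p among the lists in a class, and the 3 genes of highest correlation with each member. A result that needs a withheld item is not reported here. Alternatives were DESeq2 1.42.0, other scaling, filters, doublets, clustering, a replicate block, an intron-length correction and leaving out libraries.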

Additional observations from a re-analysis of the deposited data

Results flagged for a closer look

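The change of Il34 differed between mural-like and fibroblast-like cells by -1.67 on the log2 scale in the joint fit (edgeR, adjusted p = 0.0374). The difference between the classes itself passed the test: fibroblast-like cells had 63.3 and 52.6 CPM in deligated and 31.7 and 25.5 CPM in homeostatic libraries, and mural-like cells 136 and 191 against 255 and 215 CPM. The difference was -1.33 and -2.08 without the first and second deligated library (adjusted p = 0.00206 and 6.21e-05) and lost its call without either homeostatic library.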

How the results depend on the processing

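Beside the libraries left out, 344 alternative values of single members were computed, of which 299 kept their direction and side of the threshold, 14 passed it newly, 7 no longer passed it and 24 turned direction; the causes were not tested. The fall of the macrophage-like share kept its call in every alternative run. Depth limits Ccl2 and Ccl7, with 3 to 19 UMIs in homeostatic fibroblast-like cells, T cell-like Csf1, with 2 and 1 homeostatic UMIs, and macrophage-like values, with 57 and 114 deligated cells. The stricter cell filter was not run for mural-like and T cell-like cells, which fell to 10 and 13 cells in a library, nor for the difference between stromal classes.

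The counts of members called include those that passed the low-count filter through 1 group alone (Ccl7 in fibroblast-like and Ccr2 and Cx3cr1 in endothelial-like cells, and T cell-like Csf1, which the crossed block alone called). Fibroblast-like cells went from 3 to 1 after the intron-length correction and 0 to 4 with 1 library left out. Endothelial-like cells went from 2 to 0 with DESeq2 and 1 to 6 with 1 library left out. Macrophage-like cells went from 1 to 2 with no filter on low counts, after the intron-length correction and with doublets kept, and 0 to 5 with 1 library left out. NK/innate lymphoid-like cells went from 0 to 1 with the stricter cell filter and 0 to 2 with 1 library left out. T cell-like cells went from 1 to 0 with no filter and after the intron-length correction, to 2 with doublets kept and at Leiden resolution 2.0, and 0 to 1 with 1 library left out. All retained cells went from 5 to 4 to 9 with 1 library left out. The differences between stromal classes went from 1 to 5 with no filter and 0 to 5 with 1 library left out.

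Of the counts of genes called, DESeq2 gave 1709 in fibroblast-like (edgeR 2977), 304 in mural-like (529), 797 in macrophage-like (1614), 3237 in NK/innate lymphoid-like (5009) and 1018 in T cell-like cells (1767). The intron-length correction gave 1925, 216, 915 and 761 in fibroblast-like, mural-like, macrophage-like and T cell-like cells. In mural-like cells no filter gave 1000 and doublets kept gave 960. For the differences between stromal classes no filter gave 285 (mural-like minus fibroblast-like), 805 (endothelial-like minus fibroblast-like) and 244 (mural-like minus endothelial-like) of 21782 genes. With the filter these were 42, 407 and 63 of 13146. With 1 library left out the counts ran from 1335 to 4315 in fibroblast-like, 233 to 366 in mural-like, 1939 to 7695 in endothelial-like (4611), 266 to 1909 in macrophage-like, and 4606 to 12140 in all retained cells (8960). In the lymphoid classes they ran from 892 to 2644 (T cell-like) and from 2531 to 6389 (NK/innate lymphoid-like).

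The replicate numbers did not pair the libraries (correlation of same-numbered deviations -0.15 to -0.03). With the replicate block 2 members were called in macrophage-like cells, 3 in fibroblast-like and 5 in all retained cells. The share of all genes called with that block is not given here, so that these counts are no result about the members. A crossed replicate block, chosen after seeing the data, called 3470, 890, 5088, 1457, 5582, 2590 and 8769 genes in fibroblast-like, mural-like, endothelial-like, macrophage-like, NK/innate lymphoid-like, T cell-like and all retained cells, and 2 members each in macrophage-like, NK/innate lymphoid-like and T cell-like cells.

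Directions turned as follows, on the log2 scale. With doublets kept, fibroblast-like Ccl2 was -0.28, Ccl7 -0.15 and Cx3cr1 -2.63, and macrophage-like Ccl2 -0.20, Ccl7 -0.061, Ccr2 -0.73, Cx3cr1 0.59 and Csf1r 0.46. At Leiden resolution 2.0 macrophage-like Ccl2 was -0.42, Ccl7 -0.38, Ccr2 -0.32, Cx3cr1 0.42 and Csf1r 0.26. With the stricter cell filter macrophage-like Cx3cr1 was 0.052. The intron-length correction gave -0.11 for macrophage-like Ccl2, 1.04 for macrophage-like Cx3cr1, -0.0066 for Ccr2 and 0.36 for Cx3cr1 in NK/innate lymphoid-like cells, 0.54 for T cell-like Cx3cr1 and -0.14 for Cx3cl1 in all retained cells. Without epithelial-like, erythroid and unnamed cells, Ccl2 was 0.045, Ccl7 0.44, Cx3cl1 -0.20 and Csf1 -0.065 over the cells left. With 1 library left out, mural-like Csf1 ran from -0.061 to 0.77, macrophage-like Ccl7 from -0.36 to 2.03, Cx3cr1 from -0.54 to 0.31 and Csf1r from -0.76 to 0.16. Over all retained cells Ccl2 ran from -1.04 to 0.37, Ccl7 from -0.77 to 0.47 and Cx3cl1 from -0.17 to 0.29. The differences ran from -0.28 to 0.50 for Csf1 (mural-like minus fibroblast-like) and from -0.083 to 1.98 for Il34 (mural-like minus endothelial-like).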
